A study of Mus musculus with 6 samples.

Results

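The immediate early transcription factor genes are the genes that cells switch on shortly after a stimulus, before any new protein has to be made. They were taken as the 10 gene names Fos, Fosb, Jun, Junb, Egr1, Egr2, Egr3, Atf3, Nr4a1 and Ier3 in the scanner files, and every probe of each gene was used. This gave 10 probes in 19 spots, of 55681 probes for 34844 gene names on the array. Each gene had 1 probe, and all 10 probes entered the test, for which a probe had to be well above background on 3 or more of the 6 arrays.

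Inguinal fat, which lies under the skin of the groin, was taken from male mice of the inbred strain C57BL/6J and measured on 1-colour Agilent microarrays. In the group titled DIO_CR_WR (3 arrays), a fatty diet (60% of energy as fat) began at 2 months of age and lasted 1 month, and calories were then restricted for about 3 weeks. Restriction ended when the mice matched the weight of chow-fed mice of their age, and free access to the fatty diet, with regain of weight, followed. In the group titled DIO (3 arrays), chow was eaten up to the end of that restriction and the fatty diet during the period that followed. In the protocol text DIO stands for the DIO_CR_WR mice and CTR for the DIO mice, and titles were used here. Every sample has another age label, 9 to 11 months in DIO_CR_WR and 6 to 8 months in DIO. These labels go up by exactly 1 month from sample to sample in the order listed, so whether they are true ages is not settled, and values fitted with them carry that doubt. The labels do not say whether an array holds RNA of a single mouse, so p-values measure the spread between these samples, which may be technical.

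These genes answer growth factors, hormones, nerve signals and stress, mostly through MAP kinases and cyclic AMP. Fos and Fosb pair with Jun and Junb to form AP-1, which binds DNA as a dimer. Egr1, Egr2 and Egr3 bind DNA through zinc fingers, Atf3 is a basic leucine zipper factor of the stress response, and Nr4a1 is an orphan nuclear receptor. Ier3 is a product of the same early response that acts on cell survival and is not itself a DNA-binding factor. In cultured fat cell precursors Egr2 (Krox20) is known for promoting adipogenesis.

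The data behind the values differed between the groups before any gene was compared. Slide 1 held the 3 DIO_CR_WR arrays with DIO replicate 1, and slide 2 held DIO replicates 2 and 3. A change fitted with the slide as a block thus sets the DIO_CR_WR arrays against DIO replicate 1 alone. The share of probes well above background was 51.1% to 65.6% on the DIO_CR_WR arrays and 68.2% to 79.2% on the DIO arrays. The lowest signal called well above background was 90.3 to 369 on the DIO_CR_WR arrays and 29.3 to 57.4 on the DIO arrays. The 75th percentile of the unscaled signal was 5403 to 6370 on the DIO_CR_WR arrays and 4108 to 4452 on the DIO arrays. A higher unscaled signal in DIO_CR_WR can therefore reflect the brightness of the array. No probe was saturated (0 spots on each array), and all 10 fat cell markers tested, among them Adipoq and Plin1, were well above background on all 6 arrays. With 3 arrays per group, the number of arrays limits precision.

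The promoter windows of Fos, Junb, Egr2 and Nr4a1 are shown because Fos, Junb and Egr2 were the members higher on every DIO_CR_WR array, and Nr4a1 had the largest change below 0 among members with a listed window. Each is 300 bases long around a transcript start, from RefSeq on build GRCm38.p6. Capitals mark the short cAMP element TGACG (or CGTCA on the other strand) and the CArG box, the site of serum response factor.
Fos promoter, chr12:85473640-85473939, strand plus: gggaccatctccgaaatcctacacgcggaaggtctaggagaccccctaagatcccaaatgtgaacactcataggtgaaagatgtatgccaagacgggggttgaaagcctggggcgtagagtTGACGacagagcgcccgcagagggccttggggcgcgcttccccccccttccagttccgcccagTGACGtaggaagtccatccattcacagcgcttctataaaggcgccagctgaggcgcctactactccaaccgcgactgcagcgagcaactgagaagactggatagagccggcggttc
Junb promoter, chr8:84978699-84978998, strand minus: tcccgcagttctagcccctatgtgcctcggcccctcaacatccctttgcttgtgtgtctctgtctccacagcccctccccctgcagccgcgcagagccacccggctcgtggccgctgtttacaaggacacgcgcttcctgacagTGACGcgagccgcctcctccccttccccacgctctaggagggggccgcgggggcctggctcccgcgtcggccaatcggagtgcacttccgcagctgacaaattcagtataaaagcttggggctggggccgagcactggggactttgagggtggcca
Egr2 promoter, chr10:67537619-67537918, strand plus: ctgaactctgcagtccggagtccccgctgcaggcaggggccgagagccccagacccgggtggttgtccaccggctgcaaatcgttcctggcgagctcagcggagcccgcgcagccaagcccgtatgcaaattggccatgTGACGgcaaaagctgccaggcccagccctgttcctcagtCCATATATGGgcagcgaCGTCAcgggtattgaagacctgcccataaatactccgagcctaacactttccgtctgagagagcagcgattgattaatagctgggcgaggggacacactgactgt
Nr4a1 promoter, chr15:101266596-101266895, strand plus: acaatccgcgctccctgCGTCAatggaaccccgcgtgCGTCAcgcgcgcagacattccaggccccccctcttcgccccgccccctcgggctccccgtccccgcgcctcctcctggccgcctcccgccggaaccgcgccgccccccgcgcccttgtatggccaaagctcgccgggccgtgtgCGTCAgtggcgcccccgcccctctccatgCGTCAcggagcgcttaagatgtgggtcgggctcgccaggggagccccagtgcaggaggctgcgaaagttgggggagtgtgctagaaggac

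Windows were listed for 8 of the 10 genes, and Egr2 had 5 of the 12 windows, for different starts that partly overlap. The CArG box was in 4 windows of Egr2, 1 gene of 8, and in 1.63% of all 32851 windows. In the Egr2 window shown it lies at −72 to −63 from the start. The short cAMP element, which was chosen after the sequences were seen, was in windows of 6 of the 8 genes and in 20.8% of all windows. It was in windows of Fos, Fosb, Junb, Egr2, Atf3 and Nr4a1, and Nr4a1 held 4 copies, at −233, −213, −69 and −40. The full cAMP response element TGACGTCA, the AP-1 site TGANTCA and the NR4A site AAAGGTCA were in 0 of the 8 genes' windows, against 1.79%, 7.81% and 1.51% of all windows. The EGR site GCGNGGGCG was in windows of Fosb and Nr4a1 and in 5.55% of all windows. The kappa B site was in windows of Fos, Fosb, Ier3 and Nr4a1 and in 4.51% of all windows. All motifs were searched on both strands, and the short cAMP element is part of the full one. Sequence outside the windows was not searched, so a window without a motif does not show that the gene lacks it.

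The probes of Junb and Egr3 are shown because Junb separated the groups with little spread and Egr3 was close to the background. Each is 60 bases long on build mm9 with 55% G and C, and the reading frames free of stop codons number 2 for Junb and 3 for Egr3.
Junb probe, chr8:87501881-87501940: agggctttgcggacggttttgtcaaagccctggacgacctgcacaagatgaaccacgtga
Egr3 probe, chr14:70479222-70479281: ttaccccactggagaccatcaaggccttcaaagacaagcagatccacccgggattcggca

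The comparison asks how these genes differ between fat of mice that had been obese, lost weight and gained it again and fat of mice on their first fatty diet. Levels are log2 signal minus the 75th percentile of each array, and changes are DIO_CR_WR minus DIO with limma's standard error (SE). Junb, Fos and Egr2 were higher on all 3 DIO_CR_WR arrays than on any DIO array, while Jun was lower on all 3. Egr3 was not well above background on any DIO_CR_WR array and has only a bound there, so it is not counted below unless stated. Nr4a1 was lower on average but overlapped between the groups, as did Fosb, Egr1, Atf3 and Ier3. With Benjamini-Hochberg adjustment over 38458 probes limma called 0 of the 10 genes at 0.05, and 0 probes in all (0%). The 9 genes other than Egr3 were well above background on all 6 arrays. At an unadjusted p under 0.05, 3 of these 9 were higher (Fos, Junb and Egr2) and 2 lower (Jun and Nr4a1). Of all probes 26.3% passed that threshold, 5.29% higher and 21.0% lower. With arrays scaled to spike-in RNA these shares of all probes turned round, to 20.8% higher and 2.94% lower, and of the 9 members 4 were then higher (Fos, Junb, Egr1 and Egr2) and 0 lower. The groups did not overlap for 3 higher members of the 9, against 7.21% of all probes, and for 1 lower member, Jun, against 25.9% of all probes.

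The median log2 change of all probes was −0.19, and it was 0.31 when arrays were scaled to spike-in RNA, so the sign of a small change depends on the scaling. The median change of the 10 genes, with Egr3 at its measured value, was 0.51, and that of the 9 without Egr3 was 0.72. The median of the 10 was 0.70 above that of all probes. Spike-in scaling cannot alter this difference, since either scaling shifts all probes of an array alike. It was 0.59 with quantile normalization, and 0.51 with normexp background correction before quantile normalization. Because members lay on both sides, the median of the members describes no single direction. Of the 9 genes 7 had a change above 0, as did 34.4% of all probes.

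**Figure D1:**
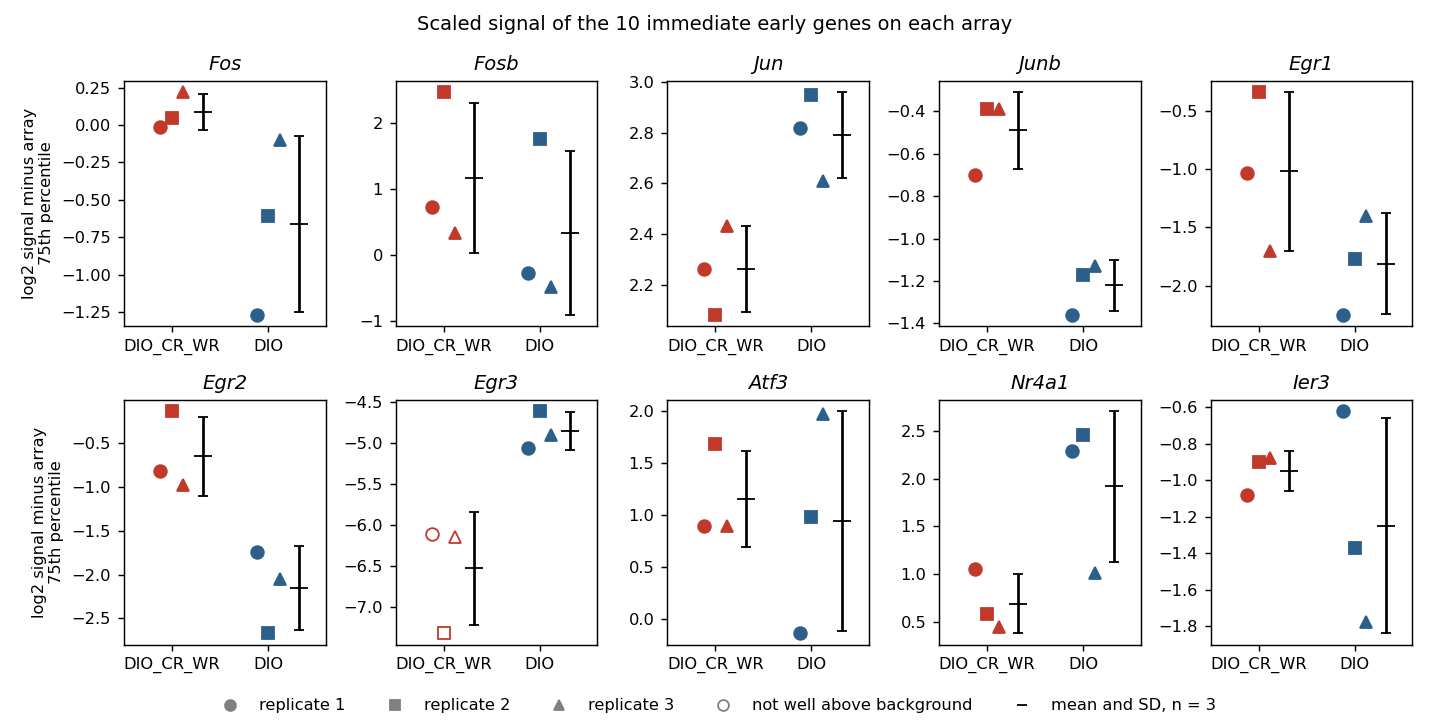
Log2 signal minus the array's 75th percentile for each of the 10 genes on each array, with DIO_CR_WR left of DIO, a symbol per replicate, and the mean and SD beside the points (n = 3). Junb, Fos and Egr2 lie higher on every DIO_CR_WR array and Jun lower, and the open Egr3 points are not well above background.

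Among the AP-1 genes, Junb separated the groups with little spread within either. Junb, a partner of Fos with weaker activating power than Jun, had a processed signal of 3925, 4684 and 4120 on DIO_CR_WR replicates 1 to 3, against 1740, 1885 and 1880 on DIO replicates 1 to 3. The lowest DIO_CR_WR signal was above every DIO signal before scaling, when the DIO_CR_WR arrays were brighter in general, and after it. Its scaled level averaged −0.49 ± 0.18 in DIO_CR_WR and −1.22 ± 0.12 in DIO (SD, n = 3 each, log2). The change was 0.72 ± 0.17 SE, 1.65-fold (limma, unadjusted p = 0.0043, adjusted p = 0.125). Of all probes 3.42% had a p as small or smaller. A slide block gave 0.86 and spike-in scaling 1.22. Junb had 0.32 in the fit with labelled age (adjusted p = 0.526).

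Fos, the classic member of the early response and a partner in AP-1, was measured in 10 spots on each array (chr12:86817900-86817959, mm9). Its mean signal over the spots was 6331, 6387 and 6296 on DIO_CR_WR replicates 1 to 3, against 1847, 2768 and 3829 on DIO replicates 1 to 3. The DIO_CR_WR arrays lay within a narrow band and the DIO arrays were spread out below it. The scaled level averaged 0.09 ± 0.12 in DIO_CR_WR and −0.66 ± 0.59 in DIO (SD, n = 3 each, log2). The change was 0.75 ± 0.30 SE, 1.68-fold (limma, unadjusted p = 0.0454, adjusted p = 0.184).

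The repeated Fos spots give the spread between spots of the same array. The SD over spots was 0.12 to 0.16 on the DIO_CR_WR arrays and 0.06 to 0.15 on the DIO arrays (log2, 9 or 10 spots after 2 outlier flags in all). The SE of an array's mean over its spots was 0.04 to 0.05 on the DIO_CR_WR arrays and 0.02 to 0.05 on the DIO arrays. The SD between array means was larger than that in both groups, at 0.12 in DIO_CR_WR and 0.59 in DIO. DIO replicate 3, at −0.10, came close to the lowest DIO_CR_WR array, at −0.01, and single spots of those arrays overlapped. With the slide as a block, the Fos change of 1.36 has DIO replicate 1 alone to stand for DIO on slide 1. Leaving out DIO replicate 1 gave 0.45, and the labelled age as a covariate turned the sign, to −0.30 (adjusted p = 0.693).

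**Figure D2:**
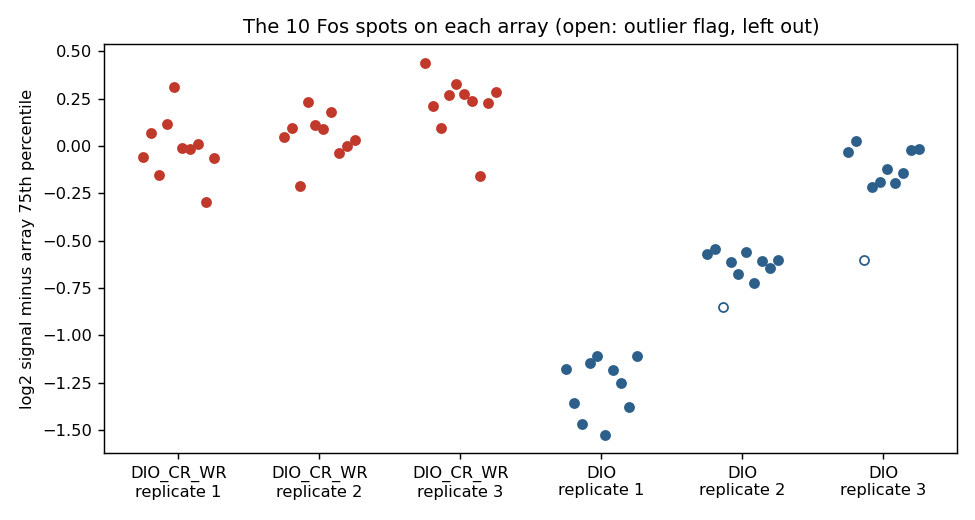
Log2 signal minus the array's 75th percentile of each of the 10 Fos spots on each array, with the DIO_CR_WR arrays left of the DIO arrays and open circles for spots left out for an outlier flag. The spots of each array cluster, and the DIO arrays lie apart from each other at means of −1.27, −0.61 and −0.10.

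Fosb, the relative of Fos that is known for accumulating under repeated stimulation in the brain, varied more within each group than between them. Its signal was 10489, 34006 and 6795 on DIO_CR_WR replicates 1 to 3, against 3685, 14330 and 2924 on DIO replicates 1 to 3. Replicate 2 was the highest array in both groups. The change was 0.84 ± 0.77 SE (limma, adjusted p = 0.511), and leaving out each array in turn gave 0.19 (without DIO_CR_WR replicate 2) to 1.55 (without DIO replicate 2).

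Jun, the founding partner of Fos in AP-1, was on the other side from Junb on the scaled values. Its signal was 30438, 26100 and 29062 on DIO_CR_WR replicates 1 to 3, against 31402, 32705 and 24991 on DIO replicates 1 to 3. Before scaling these signals overlapped, and after scaling every DIO_CR_WR array was lower, at 2.08 to 2.43 against 2.61 to 2.95 on the DIO arrays. The change was −0.53 ± 0.18 SE (limma, unadjusted p = 0.021, adjusted p = 0.144). It was −0.03 with spike-in scaling, and −0.34 relative to the median of all probes, a value that the choice between these scalings cannot alter.

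Atf3, a stress-induced factor that can pair with Jun proteins, had its highest and its lowest scaled level in the same group, DIO. Its signal was 11780, 19703 and 10019 on DIO_CR_WR replicates 1 to 3, against 4034, 8382 and 16090 on DIO replicates 1 to 3. The DIO arrays spanned 2.11 on the log2 scale, and the DIO_CR_WR arrays spanned 0.79. The change was 0.21 ± 0.54 SE (limma, adjusted p = 0.824). A slide block gave 1.29, and leaving out DIO replicate 1 gave −0.32.

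Of the EGR genes, Egr2 and Egr1 had changes above 0 and Egr3 was near the background. Egr2, known in nerve as the myelination regulator Krox20, had the largest change above 0 among the 10. Its signal (chr10:67004798-67004857, mm9) was 3599, 5624 and 2732 on DIO_CR_WR replicates 1 to 3, against 1333, 664 and 995 on DIO replicates 1 to 3. All DIO_CR_WR signals were above all DIO signals, also after scaling. The scaled level averaged −0.65 ± 0.45 in DIO_CR_WR and −2.15 ± 0.48 in DIO (SD, n = 3 each, log2).

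For Egr2 the change was 1.51 ± 0.33 SE, 2.84-fold (limma, unadjusted p = 0.00304, adjusted p = 0.124), and 2.45% of all probes had a p as small or smaller. A log2 change above 1 was found in 1 of the 9 genes, Egr2, and in 2.89% of all probes, and one below −1 in 1 gene, Nr4a1, and in 6.30% of all probes. A slide block gave 1.09 for Egr2 and spike-in scaling 2.01. Without DIO replicate 1 it passed the test (adjusted p = 0.0386, range over the alternatives 0.0386 to 0.522), but then slide and group cannot be told apart.

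Egr1, the most widely studied EGR factor, had a signal of 3114, 4850 and 1668 on DIO_CR_WR replicates 1 to 3, against 934, 1242 and 1558 on DIO replicates 1 to 3. Every unscaled DIO_CR_WR signal was higher, but after scaling DIO_CR_WR replicate 3, at −1.70, lay below DIO replicate 3, at −1.40. The change was 0.78 ± 0.39 SE (limma, unadjusted p = 0.0863, adjusted p = 0.244). A slide block gave 1.23, and leaving out DIO_CR_WR replicate 2 gave 0.44.

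Egr3, a relative that is known in muscle spindles and lymphocytes, was dim. Its signal was 92.2, 38.5 and 76.2 on DIO_CR_WR replicates 1 to 3, against 133, 174 and 137 on DIO replicates 1 to 3. It was well above background on 0 of the 3 DIO_CR_WR arrays and on all 3 DIO arrays, so in DIO_CR_WR it has only a bound. Its measured mean was −6.53 in DIO_CR_WR and −4.86 in DIO (log2). As a bound, each DIO_CR_WR array was set at its lowest signal called well above background, or at the measured signal if higher. The DIO mean was 1.22-fold above the DIO_CR_WR mean set in this way. That value comes from the array floors, so no direction is drawn from it. On DIO_CR_WR replicate 1 that lowest signal, at −4.11 on the scaled log2 scale, lay above Egr3 on every DIO array, −5.07 to −4.61, so this array cannot show a lower level. The fit on the measured values gave −1.67 ± 0.36 SE (limma, adjusted p = 0.123), and −0.54 with normexp background correction. Egr3 passed the filter through the DIO arrays alone, and these fitted values are no measure of its change. The lowest signal called well above background was higher on every DIO_CR_WR array than on any DIO array, and its part in this value was not tested.

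Nr4a1 and Ier3 are neither AP-1 nor EGR genes. Nr4a1 (Nur77), a receptor known in fat for its induction by adrenergic signals, had a signal of 13167, 9210 and 7376 on DIO_CR_WR replicates 1 to 3, against 21814, 23334 and 8290 on DIO replicates 1 to 3 (chr15:101105071-101105130, mm9). DIO replicate 3 was near the DIO_CR_WR arrays, and DIO replicates 1 and 2 were above all of them. On the scaled values the groups overlapped, since DIO_CR_WR replicate 1, at 1.05, was just above DIO replicate 3, at 1.01. The change was −1.23 ± 0.41 SE (limma, unadjusted p = 0.0218, adjusted p = 0.145). A slide block gave −1.60, spike-in scaling −0.73, and a covariate for the labelled age 0.18.

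Ier3 had a signal of 3013, 3296 and 2942 on DIO_CR_WR replicates 1 to 3, against 2904, 1645 and 1200 on DIO replicates 1 to 3. Its scaled level in DIO_CR_WR, −1.08 to −0.88, lay inside the range of the DIO arrays, −1.78 to −0.62. The change was 0.30 ± 0.30 SE (limma, adjusted p = 0.551), and a slide block gave −0.34. Leaving out each array in turn gave 0.04 (without DIO replicate 3) to 0.62 (without DIO replicate 1).

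**Figure D3:**
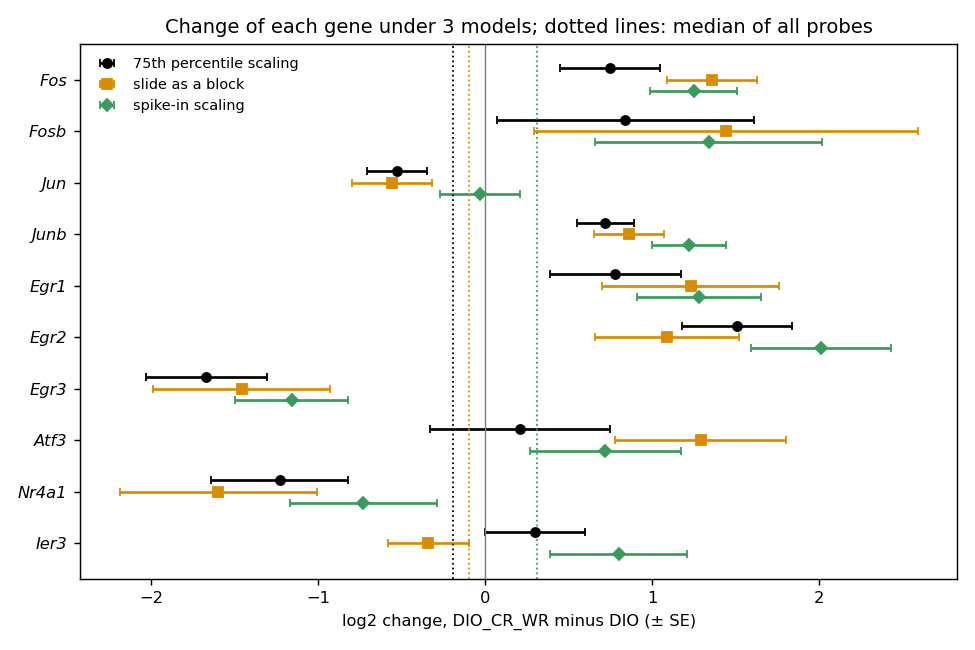
Log2 change of each gene, DIO_CR_WR minus DIO, with its SE in limma (3 arrays per group), for 75th percentile scaling, for the slide as a block and for spike-in scaling, with dotted lines at the median of all probes. Junb, Fos, Egr2, Fosb, Egr1 and Atf3 lie above 0 in all 3 models, Atf3 by less than its SE with 75th percentile scaling. Nr4a1 and Jun lie below, with Jun at −0.03 with spike-in scaling, and Egr3 is not well above background in DIO_CR_WR.

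The members also differed in how they varied within a group. The widest ranges were those of Fosb, 2.14 in DIO_CR_WR and 2.25 in DIO, and the narrowest were those of Ier3 in DIO_CR_WR, 0.20, and Junb in DIO, 0.23 (log2). DIO_CR_WR replicate 2 was the highest array of its group for 4 genes, namely Fosb, Egr1, Egr2 and Atf3, and replicate 3 for another 4, namely Fos, Jun, Junb and Ier3. Within DIO, replicate 1 was the lowest array for 5 genes, namely Fos, Junb, Egr1, Egr3 and Atf3, and the highest for Egr2 and Ier3. Replicates of a group thus did not share 1 order over the 10 genes.

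Of the relatives and regulators listed around the 10 genes, limma called 0 after adjustment over all probes. Of 15 AP-1 relatives 14 were tested, with 3 higher and 0 lower by their brightest probes (unadjusted p under 0.05) and a median change of 0.15. By that threshold 5.29% of all probes were higher and 21.0% lower. Batf, an AP-1 factor of lymphocytes and dendritic cells, had a change of 0.93 ± 0.21 SE (limma, adjusted p = 0.124). Maff, a small Maf protein, had 0.53 ± 0.20 SE (limma, adjusted p = 0.164). The brighter of the 2 probes of Fosl2, a late relative of Fos, had 0.54 ± 0.17 SE and the other −0.67 ± 0.16 SE, so its direction is not settled. Maf had −0.21 ± 0.20 SE at its brighter probe and −1.09 ± 0.19 SE at the other, where the groups did not overlap.

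Of 5 EGR and NR4A relatives and corepressors 4 were tested. Nab1, which binds EGR proteins and represses them, had a change of 0.82 ± 0.25 SE (limma, adjusted p = 0.139), and 0.32 with the slide as a block. Its relative Nab2 had −0.78 ± 0.27 SE at the brighter probe and 0.63 ± 0.30 SE at the other. Nr4a2, named after its values were seen, had a change of −0.21 ± 0.19 SE. Egr4 was well above background on 1 of the 3 DIO_CR_WR arrays and all 3 DIO arrays, so no change is given, and Nr4a3 was not tested.

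Among 46 other immediate early genes 6 were higher and 3 lower (same threshold), and the median change was 0.04, which is 0.23 above that of all probes. Id2, an inhibitor of helix-loop-helix factors, had a change of 1.16 ± 0.21 SE (limma, adjusted p = 0.118), and its scaled levels of 0.88 to 1.23 in DIO_CR_WR did not overlap those in DIO, −0.46 to 0.10. Snai1, a repressor of epithelial genes, had 0.87 ± 0.23 SE, and Phlda1 had 0.70 ± 0.20 SE (limma, adjusted p = 0.13 and 0.135). Bhlhe40, a repressor that also belongs to the circadian clock, was at 0.498-fold, with all DIO_CR_WR arrays below all DIO arrays (limma, adjusted p = 0.139). Thus the longer list held genes on both sides, like the 10 members.

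Regulators of the pathway were read next. Of 12 MAP kinase phosphatases and feedback inhibitors, each by its brightest probe, 0 passed an unadjusted p under 0.05 in limma. Their median change was 0.10. The dimmer probes did not all stay flat: those of Spred1 had 0.85 ± 0.18 and 0.57 ± 0.22 SE. Those of Dusp8 had −1.02 ± 0.23 and −0.30 ± 0.28 SE. Of 21 upstream kinases and factors 0 were higher and 3 lower by their brightest probes, against 5.29% and 21.0% of all probes. Their median was −0.16, near that of all probes. These 3 were the MAP kinase kinases Map2k2, Map2k4 and Map2k7, with changes of −0.75 ± 0.16, −0.48 ± 0.16 and −0.52 ± 0.21 SE. The other probes of Map2k2 and Map2k4 had −0.80 ± 0.19 and −0.11 ± 0.30 SE. A dimmer probe of Mkl1 had 0.55 ± 0.19 SE, and a dimmer probe of Crem −0.49 ± 0.20 SE. Among 9 tested heat shock genes, another stress response, 0 were higher and 2 lower, Hspe1 and Hspd1, with −0.45 ± 0.15 and −0.39 ± 0.14 SE.

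**Figure D4:**
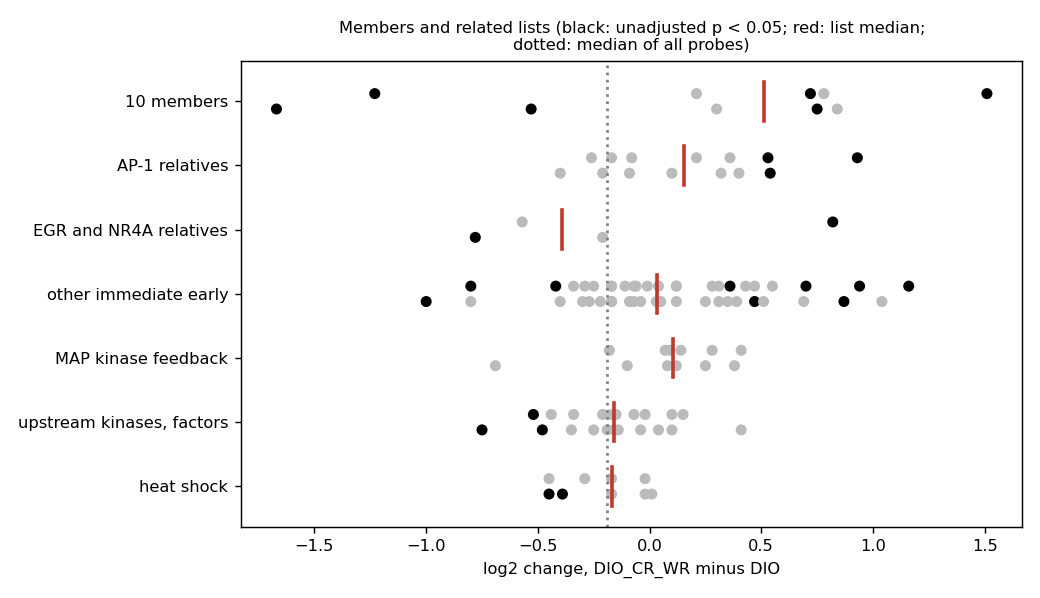
Log2 change of each tested gene, DIO_CR_WR minus DIO, for the 10 members and 6 related lists, each gene by its brightest probe, with black points for an unadjusted p under 0.05 in limma and red bars for list medians. The members spread from −1.67 (Egr3, not well above background in DIO_CR_WR) to 1.51, and the medians of the upstream and heat shock lists lie close to the dotted line at −0.19, the median of all probes.

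Since fat holds many cell types, and since fewer cells of a type cannot be told apart from less RNA per cell, marker lists were read beside these values. As a score for each array, the deviations of a list's genes from their own 6-array means were summarised by the median, less the same for all probes. The 10 members, with Egr3 at its measured value, were scored in the same way. They had −0.06 to 0.51 on the DIO_CR_WR arrays and −0.41 to −0.31 on the DIO arrays. T cell markers scored 0.13 to 1.15 in DIO_CR_WR and −1.13 to 0.05 in DIO, with 6 of 10 tested genes higher and 0 lower by unadjusted p. At an unadjusted p under 0.05, 5.29% of all probes were higher and 21.0% lower. NK cell markers scored 0.54 to 0.72 in DIO_CR_WR and −1.02 to −0.24 in DIO, with 4 of 8 higher and 0 lower. B cell markers scored 0.03 to 1.16 in DIO_CR_WR and −0.79 to −0.18 in DIO, with 2 of 5 higher and 0 lower. Macrophage markers scored 0.26 to 0.32 in DIO_CR_WR and −0.43 to −0.10 in DIO, with 3 of 9 higher and 0 lower.

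Cd3g and Cd3d of the T cell receptor complex had changes of 1.60 ± 0.38 and 1.69 ± 0.46 SE, and the macrophage receptors Msr1 and Mrc1 had 1.26 ± 0.24 and 0.67 ± 0.15 SE. Other genes of these lists did not rise. The T cell marker Cd4 had −0.10 ± 0.27 SE at its brighter probe and −0.52 ± 0.20 SE at the other. The NK cell marker Prf1 had −0.24 ± 0.19 SE and the B cell marker Cd22 had −0.21 ± 0.33 SE. The macrophage markers Itgam and Csf1r had −0.21 ± 0.25 and 0.00 ± 0.24 SE at their brightest probes. Cd68 had −0.22 ± 0.32 SE at its brighter probe and 0.78 ± 0.22 SE at the other. Of these marker lists all but 5 genes were well above background on all 6 arrays: Cd8b1 for T cells, Klre1 and Klrk1 for NK cells, and Ms4a1 and Pax5 for B cells. Klre1 and Klrk1 are among the 4 NK cell genes counted as higher, and Cd8b1 is among the 6 T cell genes. These counts thus rest in part on measured values near the background. Endothelial markers had 2 of 8 higher and 0 lower, with 0.54 ± 0.19 SE for Cdh5 and 0.40 ± 0.15 SE for Pecam1. Kdr, Vwf and Flt1 were on the other side, with −0.32 ± 0.21, −0.33 ± 0.26 and −0.18 ± 0.15 SE. The part of these cells in the values of Junb, Fos and Egr2 was not tested.

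The remaining lists were closer to all genes or lower. Their counts stand beside 5.29% of all probes higher and 21.0% lower at the same threshold. Fat cell markers had 0 of 10 higher and 3 lower, led by Cfd with −0.83 ± 0.20 SE and Lipe with −0.55 ± 0.18 SE. Skeletal muscle markers had 0 of 8 higher and 4 lower, led by Atp2a1 with −1.07 ± 0.19 SE and Ckm with −0.54 ± 0.16 SE. Neutrophil markers had 1 of 9 higher and 3 lower on the measured values. Mpo and Elane, granule enzymes made by immature neutrophils, are among these 3. Both were well above background on 1 of the 3 DIO_CR_WR arrays and all 3 DIO arrays, so neither size nor direction is given. The remaining gene of the 3, Csf3r, had −0.57 ± 0.20 SE. S100a8, a calcium-binding protein of neutrophils named after its values were seen, was the higher marker, with 1.02 ± 0.33 SE (limma, adjusted p = 0.142). Fibroblast markers had 1 of 8 higher and 0 lower, Pdgfra with 0.41 ± 0.16 SE, and red cell genes had 0 of 3 either way.

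The mean profile of the 10 over the 6 arrays was taken with Egr3 at its measured values. Among genes that are no members, it was most like the profiles of Lztfl1, Pf4, Ptx3, Klhl15 and Olfr1461. Pearson's r was 0.964, 0.954, 0.952, 0.944 and 0.942. These are the highest correlations among all genes tested, over only 6 arrays, which share slides and background, and they are given as a description. Their changes were 0.08, 0.15, 1.06, 0.49 and 1.30. The mean profile, which averages members on both sides, was −0.07 to 0.29 on the DIO_CR_WR arrays and −0.25 to 0.11 on the DIO arrays. These ranges overlap, so likeness to the mean profile says nothing of a difference between the groups.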

How the data were processed

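Inguinal fat of 6 samples was measured on Agilent arrays of design 028005. The deposited values are spot intensities, from which, per the file headers, Feature Extraction 10.7.3.1 (10.7.1.1 in the submitters' processing notes) had subtracted background and trends within each array, with no scaling between arrays. The deposited files also hold flags of 0 or 1 per spot. A file of the whole series, with 18 columns of sample values, was not used, because its names do not match the titles.

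Members and lists were chosen with earlier results of these data known. Spots with an outlier flag were left out, spots of a probe were averaged on the log2 scale, and each array's 75th percentile was subtracted. Of 38744 probes well above background on at least 3 arrays, 286 with a missing value were left out. The 38458 others were tested with limma 3.58.1 in R 4.3.3, two-sided, with Benjamini-Hochberg adjustment, and the fit was tested on simulated data. A listed gene with several probes is given by its brightest one. All 10 members matched their RefSeq symbol. Named list genes are up to 4 (cell types: 2) with the smallest unadjusted p under 0.05. Alternatives covered normalization, spike-in scaling (8 of 10 spike-in probes), filters, probes, variance, blocks, age, threshold and single arrays.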

Additional observations from a re-analysis of the deposited data

How the results depend on the processing

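Over 19 alternatives, 7 of 189 values of single genes changed sign, and Fosb, Jun, Junb, Egr1, Egr2 and Egr3 kept theirs in each alternative that gave a value. Egr3 has none where signal was required on all 6 arrays. The filters, the choice of probes, the trended variance and the replicate block cannot move the change of a member, which has 1 probe. A slide block and slide 1 alone give the same estimate. The share of changed signs is therefore no measure of how stable the signs are. With the labelled age as a covariate the change was −0.30 for Fos, −1.37 for Atf3 and 0.18 for Nr4a1. The change of Atf3 was −0.05 without DIO_CR_WR replicate 2 and −0.32 without DIO replicate 1 (up to 0.73, without DIO replicate 3). That of Ier3 was −0.34 with a slide block, by design the same estimate as on slide 1 alone. There DIO replicate 1, the highest DIO array for Ier3, stands alone for DIO. The cause of the changes of sign was not tested. The number of members called was 0 in all alternatives but 1, the fit without DIO replicate 1, which called 1 gene (0 to 1 without each array). Of all probes 6 were called with spike-in scaling and 48 where signal was required on all 6 arrays and 27365 were tested. Without each array the number was 0 to 5361, and 5361 is without DIO replicate 1, when each group lies on its own slide. Members higher at an unadjusted p under 0.05 numbered 1 with the age covariate and 2 to 3 without each array. Members lower, Egr3 included at its measured value, numbered 1 with spike-in scaling, 1 on slide 1 alone and 0 with the age covariate, and 1 to 3 without each array. The median of the members minus that of all probes was 1.08 with a slide block, by design the same as on slide 1 alone. It was 0.43 to 0.76 without each array, lowest without DIO_CR_WR replicate 2. With the replicate number as a block it was 0.70, with 0 probes called. The numbers were not treated as pairs: deviations of same-numbered arrays correlated at 0, −0.13 and −0.21 across probes. Slide 2 holds DIO arrays alone, and signal over background limits Egr3.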

Other observations

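Homer1, a scaffold protein of glutamate synapses whose short form is made as an immediate early gene in neurons, had 5 tested probes, and all 5 had a change below 0. It was singled out after its values were seen. The changes were −1.42 ± 0.29, −1.17 ± 0.24, −1.04 ± 0.34, −0.80 ± 0.31 and −0.66 ± 0.45 SE (limma, DIO_CR_WR minus DIO, 3 arrays per group). Their adjusted p-values were 0.122, 0.122, 0.143, 0.17 and 0.372 in limma. Ptgs2, the inducible cyclooxygenase of prostaglandin synthesis, also named after its values were seen, had a change of 0.94 ± 0.33 SE and overlapped between the groups (limma, adjusted p = 0.152).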
